A study of Homo sapiens with 6 samples.

Results

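The 47 genes described here are the BCL2 family, the caspases with their activators and inhibitors, and a panel of p53 target genes, measured by sequencing of polyadenylated RNA in MDA-MB-468, an established breast cancer line without hormone receptors and of basal type. They were taken as a list of symbols and kept apart as 29 genes of the cell death machinery and 18 p53 targets. All 47 were among the 31122 genes of the count table, TIGAR under its older symbol C12orf5, and all 47 had enough counts to be tested.

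BCL2 proteins decide whether the outer mitochondrial membrane is opened. BCL2, BCL-XL and MCL1 hold it closed, BAX and BAK open it, and the BH3-only proteins relay stress signals by binding the guardians or activating the pore formers. Released cytochrome c assembles APAF1 and caspase-9, which activate the executioner caspases, and the IAP proteins restrain caspases until SMAC (encoded by DIABLO) displaces them. The tumour suppressor p53 is a transcription factor that raises many of these genes together with genes of arrest, repair and metabolism, among them its own inhibitor MDM2.

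The parental group held 3 libraries, from wells of 1 plate of unedited cells. The group labelled GPR52 KO held 3 libraries, each from a population made by CRISPR-Cas9 with the single guide sgRNA1 against GPR52, an orphan receptor gene. Whether a population is a clone or a pool is not given in the sources used here, and no population edited at another site was analysed, so editing, selection and time in culture cannot be told apart from the label. The numbers of the KO-labelled libraries only name them, and p-values measure the spread between these libraries, which may be technical. In bulk RNA, fewer cells with a transcript and less of it per cell cannot be told apart. GPR52, the check of the label, had 9, 1 and 0 counts in the parental-labelled libraries and 645, 694 and 724 counts in the KO-labelled ones. The transcript was therefore higher under the KO label, and the groups are called parental-labelled and KO-labelled throughout, with every direction given for KO-labelled relative to parental-labelled.

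Libraries held 25637794 to 31692454 counts, of which the 47 genes made up 0.254% to 0.287%. Mitochondrial genes took 7.2% to 7.75% of the counts in every library. Markers of epithelial cells (KRT8, KRT18, KRT19, EPCAM and CDH1) summed to 5139 to 5657 CPM in the parental-labelled and 4352 to 5083 CPM in the KO-labelled libraries, where CPM, the usual unit of counts scaled to library size, was computed with TMM factors. The basal markers KRT5, KRT6A, KRT14, KRT17 and EGFR summed to 6202 to 6504 CPM and to 6180 to 9860 CPM, mostly EGFR, which was not called. Of the single markers KRT14 (1.90 in log2), KRT5 (0.51) and EPCAM (0.46) rose and KRT18 (-0.46) and CDH1 (-0.42) fell. Of 5 leukocyte markers, CD14 made up nearly all of a sum that went from 27.3 to 37.1 CPM down to 2.54 to 4.07 CPM, while PTPRC, the defining one, had at most 9 counts in a library. Markers of fibroblasts and endothelium, mostly COL1A1, summed to 8.18 to 9.93 and 24.8 to 28.4 CPM. The part of these cell types in the results was not tested.

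KO-labelled 3 stood apart from the other KO-labelled libraries for several members, and results are given with and without it where it mattered. The median SD of log2 CPM over the death genes was 0.07 within the parental and 0.24 within the KO label, over the p53 targets 0.06 and 0.18, and over all genes 0.09 and 0.19.

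A gene is said to have changed when its adjusted p was under 0.05 in edgeR's quasi-likelihood test, adjusted by Benjamini-Hochberg over all 17420 genes tested, and differences are log2 fold changes with their SE. Values after ± are the SD of 3 libraries. By this rule 40.8% of all genes tested changed, 21.0% upward and 19.8% downward, so a changed gene was common in this comparison. In the cell death machinery 14 of 29 genes changed (48.3%), 7 higher and 7 lower, with a median log2 fold change of 0.01. Among the p53 targets 11 of 18 changed (61.1%), 5 higher and 6 lower, with a median of 0.03, against 0.01 over all genes. Changes past 1.5-fold were seen in 4 death genes (13.8%) and 9 p53 targets (50%), beside 23.2% of all genes. Changes past 2-fold were seen in 0 death genes and 5 p53 targets (27.8%), beside 12.1% of all genes. Of 38 further p53 targets outside the list, 23.7% changed past 1.5-fold and 10.5% past 2-fold, shares near those of all genes. For 33 further death genes these shares were 21.2% and 9.09%. Against a 1.5-fold change, edgeR's glmTreat called 0 death genes (1 at an unadjusted p under 0.05) and 6 p53 targets (7 unadjusted). The share of all genes called by glmTreat was not counted, so these numbers cannot be read as high or low. The difference between the gene sets was not tested. The members and lists were chosen with earlier results of these data known, so these shares support no statement about the pathways. Leaving out 1 library moved the count of lower death genes to 2 (without parental-labelled 1 or 3), 3 (without parental-labelled 2) or 4 (without KO-labelled 2). Without KO-labelled 3, where 52.6% of all genes were called, it was 10, the same 7 with BOK, CASP2 and CASP10. The p53 targets called were then the same 11 with MDM2. For the other fits with 1 library left out, the share of all genes called was not counted. Whether the smaller counts are particular to the death genes was not tested.

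**Figure D1:**
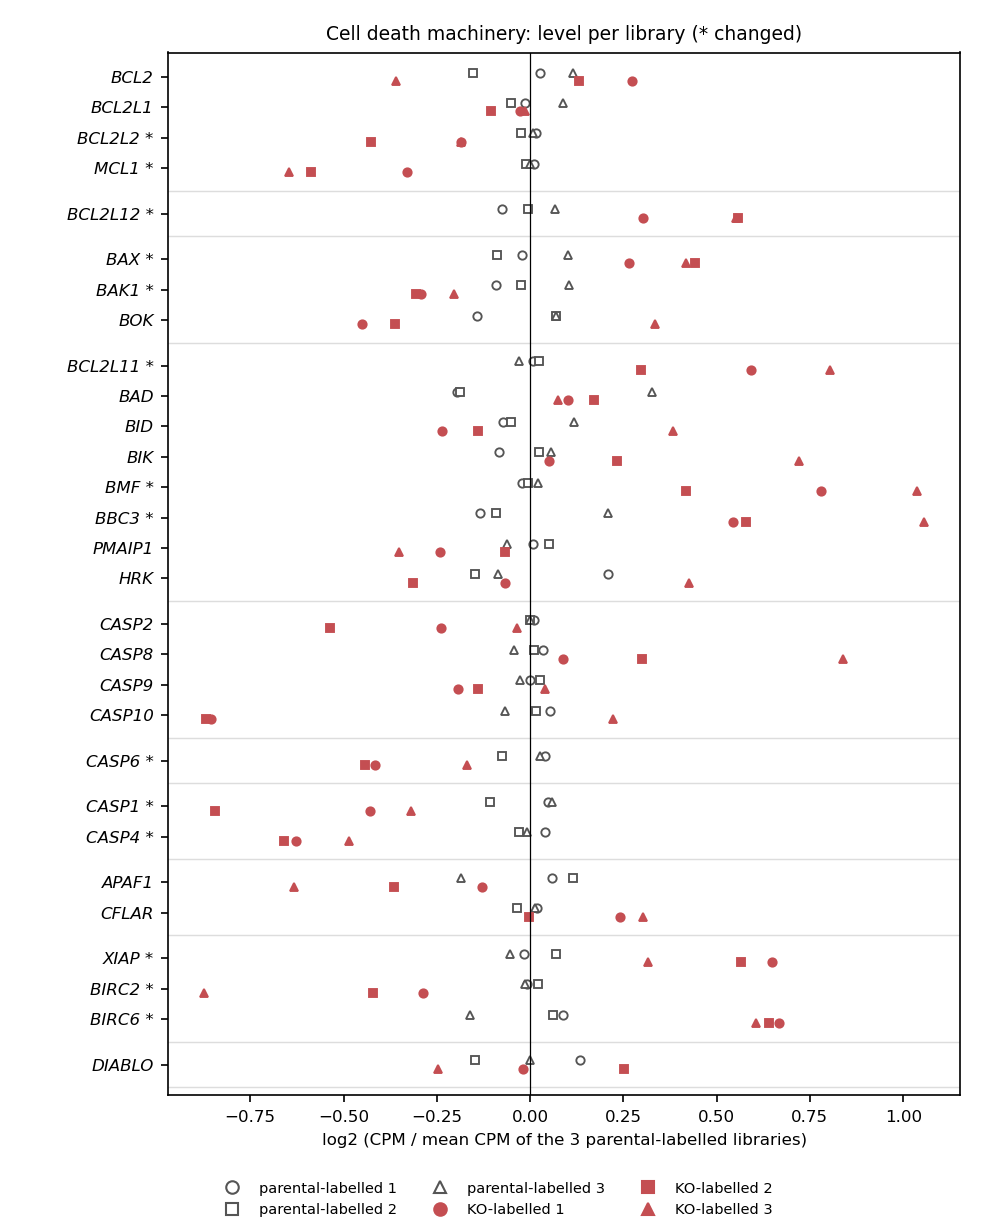
Level of each cell death gene in every library, as log2 of its CPM over the mean CPM of the 3 parental-labelled libraries, grouped by role (grey open symbols parental-labelled, red filled symbols KO-labelled, asterisk for a changed gene). Parental-labelled libraries lie close together, the red triangles of KO-labelled 3 lie far from the other red symbols for CASP10 and BOK, and MCL1, CASP4, BMF and BIRC6 show separated groups.

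Among the guardians, MCL1 fell and BCL2 and BCL-XL did not pass the test. MCL1, a short-lived guardian on which many breast cancer cells rely, was at 419, 413 and 416 CPM in the parental-labelled and 331, 277 and 266 CPM in the KO-labelled libraries. Every KO-labelled value lay below every parental-labelled one, as it did or the reverse for 54.4% of all genes tested, and the log2 fold change was -0.51 (SE 0.09, adjusted p = 0.00264). BCL2L2, which encodes BCL-W, was at 43.5, 42.3 and 43.2 CPM against 37.8, 32 and 37.8 CPM (log2 change -0.26, SE 0.09, adjusted p = 0.0427). That call was lost without any 1 of the 3 parental-labelled libraries (adjusted p 0.103 to 0.130) or without KO-labelled 2 (0.0917). BCL2L1, which encodes BCL-XL, was level at 112, 109 and 120.2 CPM against 111, 105 and 112 CPM. BCL2 itself had 7.56, 6.67 and 8.04 CPM against 8.97, 8.13 and 5.78 CPM, with its lowest value in KO-labelled 3. The log2 fold changes were -0.05 (SE 0.07) for BCL2L1 and 0.03 (SE 0.17) for BCL2, and neither was called.

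Per transcript length, as the authors' FPKM values give it, MCL1 was the most abundant guardian in both groups, with 95.6 ± 4.40 FPKM in the parental-labelled and 71.2 ± 7.41 FPKM in the KO-labelled libraries. BCL-XL followed with 46.4 ± 3.21 and 46.7 ± 2.05 FPKM, then BCL-W with 12.2 ± 0.633 and 10.4 ± 1.07 FPKM, and BCL2 was lowest with 1.23 ± 0.187 and 1.46 ± 0.384 FPKM. The order was the same in both groups and no neighbours in it came within their spread. BCL2L12, an atypical relative with a weak resemblance to the family, rose from 27.3 ± 1.34 to 38.0 ± 3.70 CPM, a log2 fold change of 0.48 (SE 0.10, adjusted p = 0.00523).

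**Figure D2:**
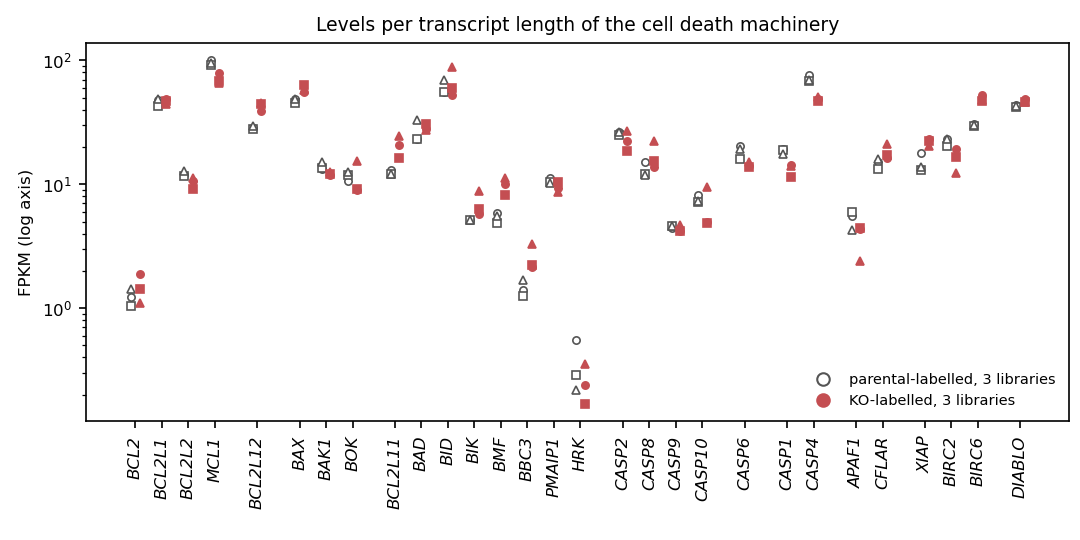
FPKM (log axis) of the cell death genes in each library, grouped by role, with grey open symbols for the 3 parental-labelled and red filled symbols for the 3 KO-labelled libraries. MCL1 is the highest guardian at 66.3 to 100.1 FPKM, BCL2 lies between 1.04 and 1.87 FPKM, and HRK is the lowest gene drawn.

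The pore-forming effectors moved apart. BAX was at 32.8, 31.3 and 35.7 CPM in the parental-labelled and 40.0, 45.2 and 44.5 CPM in the KO-labelled libraries, all higher (log2 change 0.38, SE 0.09, adjusted p = 0.00988). BAK1, which encodes the other effector BAK, went from 29.4 ± 2.03 to 24.4 ± 0.930 CPM, a log2 fold change of -0.27 (SE 0.09, adjusted p = 0.0394). BOK, a relative of both, had 22.7 and 24.1 CPM in KO-labelled 1 and 2 but 39.1 CPM in KO-labelled 3, above the parental-labelled 28.1 to 32.5 CPM. BOK was not called, and without KO-labelled 3 it was lower by -0.41 on the log2 scale (adjusted p = 0.00386 by edgeR). The BAX call did not hold without parental-labelled 1 or 2 (adjusted p = 0.0521 and 0.0604), and that of BAK1 was lost without any library other than KO-labelled 3 (adjusted p 0.0660 to 0.127).

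Ratios within a library set effector against guardian on the FPKM scale. The ratio of BAX to BCL2L1 was 1.01, 1.06 and 1.01 in the parental-labelled and 1.15, 1.36 and 1.29 in the KO-labelled libraries, a difference of 0.30 in log2 with no overlap. BAX over MCL1 went from 0.486, 0.494 and 0.511 to 0.698, 0.942 and 0.865, a difference of 0.74 in log2, also with no overlap. BAX over BCL2 overlapped, with 39.6, 43.3 and 34.5 against 29.8, 44.9 and 52. The ratio to MCL1 was added after the values of MCL1 were seen. In CPM the differences were 0.43 for BCL2L1, 0.90 for MCL1 and 0.36 for BCL2, where FPKM gave 0.08. No test was run on these ratios, and an exact permutation test of 3 against 3 cannot go below 0.10.

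Of the 8 BH3-only genes 3 rose, 0 fell and 5 were not called in edgeR. The share called was 37.5%, beside 40.8% of all genes tested, with 21.0% higher and 19.8% lower. Also 0 were lower at an unadjusted p under 0.05, with DESeq2 and with limma voom. BMF, whose protein is released from the cytoskeleton when cells detach, was at 26, 26.3 and 26.8 CPM against 45.3, 35.3 and 54.2 CPM. All 3 KO-labelled values were higher, and the log2 fold change was 0.77 (SE 0.15, adjusted p = 0.00403). BCL2L11, which encodes BIM, a binder of every guardian, was at 61.0, 61.7 and 59.5 CPM against 91.5, 74.6 and 106 CPM (log2 change 0.58, SE 0.12, adjusted p = 0.00639). BBC3, which encodes the p53-inducible protein PUMA, was low at 2.05, 2.11 and 2.60 CPM against 3.28, 3.36 and 4.68 CPM (log2 change 0.74, SE 0.20, adjusted p = 0.0199). Those KO-labelled values rest on 87, 95 and 131 counts, and the BBC3 call was lost without parental-labelled 1 or 2 (adjusted p = 0.0831 and 0.0754). In all 3 of these genes the highest value was in KO-labelled 3.

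The other BH3-only genes did not pass the test. PMAIP1, which encodes the MCL1 antagonist NOXA and is another p53-inducible gene, was at 19.5, 20.1 and 18.6 CPM against 16.4, 18.5 and 15.2 CPM (log2 change -0.21, SE 0.10, adjusted p = 0.127). BIK, found at the endoplasmic reticulum, had 0.37 (SE 0.18), with its highest value, 8.82 CPM, in KO-labelled 3. BAD, which growth factor signalling holds inactive, and BID, which caspase-8 cleaves, had 0.12 (SE 0.15) and 0.03 (SE 0.16). HRK, known from neurons, was at 1.24 to 2.07 CPM in all 6 libraries. On the FPKM scale BID was the most abundant BH3-only transcript, with 60.4 ± 7.79 and 66.9 ± 18.4 FPKM, followed by BAD with 26.6 ± 5.82 and 28.9 ± 1.62 FPKM.

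Executioner and inflammatory caspase genes of the list fell. CASP4, an inflammatory caspase that senses bacterial lipopolysaccharide, was at 98.4, 93.8 and 95.2 CPM against 62.0, 60.6 and 68.4 CPM, clearly separated groups (log2 change -0.59, SE 0.07, adjusted p = 5.0e-04). CASP1, which processes interleukin-1 beta and borders CASP4 on chromosome 11 among the tested genes, went from 23.7 ± 1.5 to 16.6 ± 3.03 CPM (log2 change -0.51, SE 0.14, adjusted p = 0.0200). CASP6, an executioner, went from 21.6 ± 0.918 to 17.1 ± 1.83 CPM (log2 change -0.33, SE 0.10, adjusted p = 0.0334). Without parental-labelled 1 or 3 CASP1 was no longer called (adjusted p = 0.0712 and 0.0714), and CASP6 was no longer called without any library other than KO-labelled 3 (0.0700 to 0.115). CASP4 kept its call without each of the 6 libraries.

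None of the 4 initiator caspases passed edgeR's test, although 1 did at an unadjusted p under 0.05 and 1 with DESeq2, and none with limma voom. That gene was CASP8, the initiator of the death receptor pathway, with 30.6, 30.1 and 29 CPM against 31.8, 36.8 and 53.5 CPM. Its KO-labelled values were all higher, but mostly so in KO-labelled 3, and the log2 fold change was 0.45 (SE 0.18, adjusted p = 0.0759, and 0.0238 without KO-labelled 1). CASP10, the related initiator directly beside CASP8 on chromosome 2 among the tested genes, was at 36.2, 35.3 and 33.3 CPM against 19.3, 19.1 and 40.7 CPM. KO-labelled 1 and 2 lay far below and KO-labelled 3 above every parental-labelled library. CASP10 was not called with all 6 libraries, at -0.41 (SE 0.27), and without KO-labelled 3 it was at -0.87 (adjusted p = 1.4e-05). CASP9, the mitochondrial initiator, was at 10.6, 10.8 and 10.4 CPM against 9.27, 9.62 and 10.9 CPM, and CASP2 was at 125 ± 0.403 against 105 ± 17.9 CPM, not called with all libraries and lower by -0.39 (adjusted p = 0.00361) without KO-labelled 3.

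Neither of the 2 adaptors passed edgeR's test, although APAF1 was lower at an unadjusted p under 0.05 and with DESeq2 (none with limma voom). CFLAR, which encodes the caspase-8 decoy c-FLIP and lies in the same cluster as CASP8 and CASP10, was at 0.19 (SE 0.09) in log2, and at 0.27 without KO-labelled 2 (adjusted p = 0.0236). APAF1, the scaffold of the apoptosome, had -0.36 (SE 0.14, adjusted p = 0.0703), and -0.50 without KO-labelled 1 (adjusted p = 0.0236). APAF1 was lowest in KO-labelled 3, at 18.7 CPM against 25.5 to 31.4 CPM in the parental-labelled libraries.

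All 3 IAP genes among the members changed, in both directions, where 40.8% of all genes tested changed. XIAP, the direct inhibitor of caspase-9 and the executioners, was at 78.8, 83.6 and 76.8 CPM against 125, 118 and 99.2 CPM (log2 change 0.52, SE 0.10, adjusted p = 0.00362). BIRC6, a giant ubiquitin ligase that binds caspases, was at 445, 437 and 375 CPM against 665, 653 and 637 CPM (log2 change 0.64, SE 0.08, adjusted p = 5.2e-04). BIRC2, which encodes cIAP1 of the TNF receptor complex, fell from 81.3, 82.9 and 80.9 CPM to 66.9, 61.0 and 44.6 CPM (log2 change -0.51, SE 0.14, adjusted p = 0.0194). The groups did not overlap for any of the 3, nor did they for 54.4% of all genes tested. The BIRC2 call was lost without any 1 parental-labelled library (adjusted p 0.0538 to 0.0617) and in limma's test on log2(FPKM + 1) (0.0570).

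DIABLO, which encodes the IAP antagonist SMAC, had 3.93 to 5.55 CPM and was not called. Its counts and FPKM values did not match in level: it had 43.0 ± 0.973 and 46.8 ± 1.75 FPKM, and CPM over FPKM corresponded to 104 bases, where the median of 14315 genes with FPKM over 1 was 2139 bases. The next shortest member was BAX with 719 bases. The counts of DIABLO thus hold only part of what the FPKM values hold, and the cause was not tested. In limma's test on log2(FPKM + 1) DIABLO was at 0.12 (adjusted p = 0.201).

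**Figure D3:**
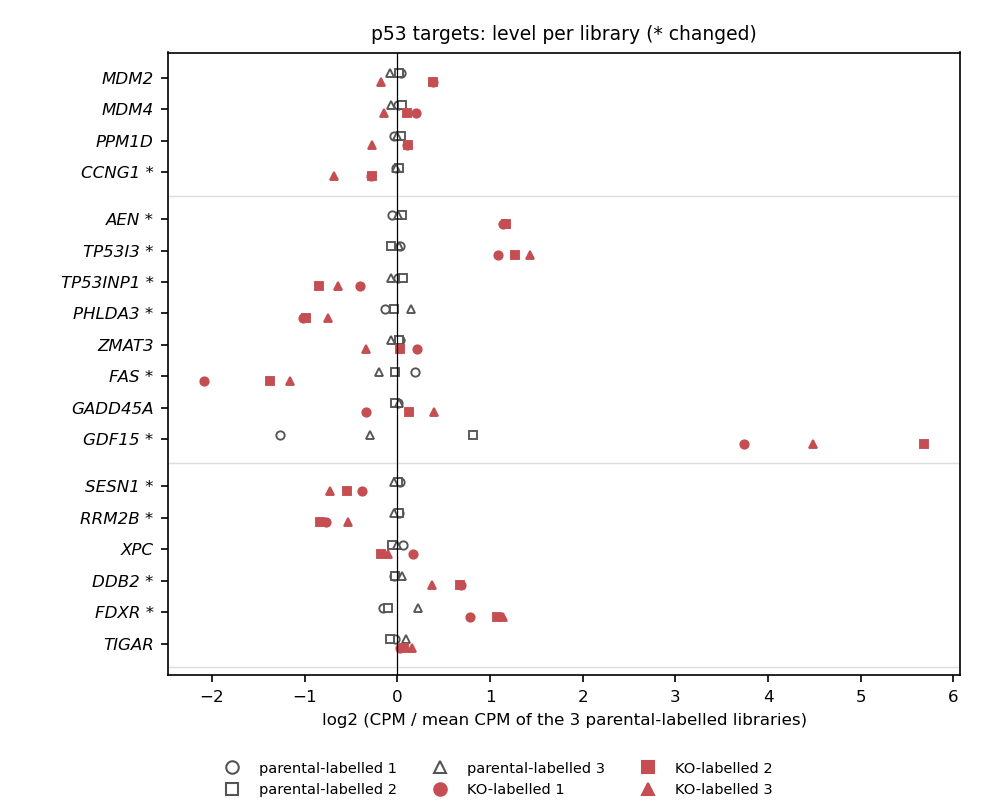
Level of each p53 target in every library, as log2 of its CPM over the mean CPM of the 3 parental-labelled libraries, grouped by role (grey open symbols parental-labelled, red filled symbols KO-labelled, asterisk for a changed gene). AEN, TP53I3, FDXR and DDB2 lie right of the parental-labelled libraries and PHLDA3, FAS, RRM2B and SESN1 left of them, and GDF15 lies farthest right in every KO-labelled library.

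The p53 targets did not move as 1 group. GDF15, a secreted stress cytokine, had the largest change of all 47 genes, with 2, 7 and 4 counts (0.0660, 0.278 and 0.129 CPM) in the parental-labelled and 56, 230 and 99 counts (2.11, 8.13 and 3.53 CPM) in the KO-labelled libraries. The groups were far apart at a low level, and the KO-labelled libraries differed from each other several-fold. Its log2 fold change was 4.90 (SE 0.78, adjusted p = 0.00177), and 5.50 without parental-labelled 2 and 4.20 without KO-labelled 2. On the log2(FPKM + 1) scale, which understates changes of low genes, it was 1.92, and on log2(FPKM + 0.1) it was 3.97, called by limma on both.

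Growth arrest and death targets went both ways. AEN, an apoptosis-enhancing nuclease, was at 24.7, 26.6 and 25.8 CPM against 56.5, 58.0 and 57.8 CPM. Both groups were tight, and the log2 fold change was 1.16 (SE 0.07, adjusted p = 2.0e-05). TP53I3, a quinone oxidoreductase also called PIG3, was at 14.4, 13.5 and 14.3 CPM against 29.9, 34.1 and 38.0 CPM (log2 change 1.27, SE 0.11, adjusted p = 8.4e-05). FAS, the death receptor for FAS ligand, had 3.46, 2.98 and 2.64 CPM against 0.716, 1.17 and 1.36 CPM (log2 change -1.48, SE 0.24, adjusted p = 0.00197). The KO-labelled FAS values rest on 19, 33 and 38 counts, and FAS was at -0.62 on log2(FPKM + 1) and -1.27 on log2(FPKM + 0.1), called by limma on both. PHLDA3, which restrains AKT, fell from 45.0, 48.0 and 54.5 CPM to 24.4, 24.9 and 29.3 CPM (log2 change -0.91, SE 0.11, adjusted p = 4.2e-04). TP53INP1, which promotes p53-dependent death and autophagy, fell from 30.5 ± 1.46 to 19.9 ± 3.06 CPM (log2 change -0.62, SE 0.12, adjusted p = 0.00441).

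GADD45A, a stress-inducible growth arrest gene, was at 47.3, 46.5 and 47.9 CPM against 37.4, 51.4 and 62.1 CPM and was not called. The KO-labelled libraries lay on both sides of the parental-labelled ones. ZMAT3, an RNA-binding protein, was at 18.5 ± 0.696 against 18.3 ± 3.44 CPM and also not called.

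Repair and metabolism targets split in the same way. FDXR, the mitochondrial ferredoxin reductase, was at 15.1, 15.7 and 19.6 CPM against 29, 35.5 and 37.0 CPM (log2 change 1.01, SE 0.14, adjusted p = 7.6e-04). DDB2, a sensor of ultraviolet damage in nucleotide excision repair, was at 28.0, 28.1 and 29.7 CPM against 46.1, 45.6 and 37.2 CPM (log2 change 0.59, SE 0.10, adjusted p = 0.00246). RRM2B, the p53-inducible ribonucleotide reductase subunit, fell from 23.2, 23.2 and 22.4 CPM to 13.4, 12.9 and 15.9 CPM (log2 change -0.71, SE 0.10, adjusted p = 0.00117). SESN1, a sestrin that inhibits mTORC1, fell from 22.6 ± 0.573 to 15.5 ± 1.89 CPM (log2 change -0.54, SE 0.11, adjusted p = 0.00496). XPC, the damage sensor that acts with DDB2, and TIGAR, a regulator of glycolysis, were not called, with -0.03 (SE 0.11) and 0.09 (SE 0.10).

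Of the 4 genes that feed back on p53 itself, 0 rose and 1 fell in edgeR (25.0% called, beside 40.8% of all genes). Also 0 were higher at an unadjusted p under 0.05, with DESeq2 and with limma voom, but 1 without KO-labelled 3. MDM2, the ubiquitin ligase for p53 and one of its most direct targets, was at 107, 105 and 98.5 CPM against 136, 136 and 91.8 CPM. KO-labelled 1 and 2 lay above and KO-labelled 3 below every parental-labelled library. MDM2 was not called, at 0.23 (SE 0.15, adjusted p = 0.248). Without KO-labelled 3 it was higher by 0.39 on the log2 scale (adjusted p = 4.6e-04). MDM4, the partner of MDM2, and PPM1D, the phosphatase WIP1, were not called, with 0.06 (SE 0.10) and -0.01 (SE 0.12), and each had its lowest value in KO-labelled 3. CCNG1, which encodes cyclin G1, fell from 166, 170.2 and 167 CPM to 138, 139 and 105 CPM (log2 change -0.40, SE 0.11, adjusted p = 0.0210), a call lost without any 1 parental-labelled library (adjusted p 0.0562 to 0.0694).

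Promoters were searched for the element that p53 binds, a search and a mismatch limit chosen after expression values and match counts were seen. A p53 element is made of half-sites of 10 bases, whose consensus reads the same on both strands, and a full element was taken as 2 half-sites with at most 1 base between them and at most 2 mismatches in 20 bases. RefSeq windows (GRCh38.p14) from 250 bases before to 50 bases after a start were found for 38 of the 47 genes, and several genes have more than 1 start. An exact half-site was in a window of 5 of 14 p53 targets (35.7%), of 3 of 24 death genes (12.5%) and of 8.06% of all 27305 genes. A full element was in a window of 4 of 14 p53 targets (28.6%), of 0 of 24 death genes and of 1.69% of all genes. Genes with more starts have more windows to match in. Counted by window, an exact half-site was in 20% for the p53 targets, 6.52% for the death genes and 6.63% for all genes. A full element was in 20%, 0% and 1.34% of windows. The sequences printed here show the 4 full elements and the half-sites of FDXR and SESN1, 5′ to 3′ on the strand of the gene, with the matching element in capitals.

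AEN (chr15:88621286-88621339, plus strand): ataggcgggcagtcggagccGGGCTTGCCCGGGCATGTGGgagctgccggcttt
DDB2 (chr11:47214979-47214999, plus strand): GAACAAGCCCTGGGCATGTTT
FDXR (chr17:74872995-74873025, minus strand): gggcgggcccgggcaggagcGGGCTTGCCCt
MDM2 (chr12:68808903-68808962, plus strand): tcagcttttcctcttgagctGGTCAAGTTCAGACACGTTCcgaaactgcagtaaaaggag
FAS (chr10:88991289-88991348, plus strand): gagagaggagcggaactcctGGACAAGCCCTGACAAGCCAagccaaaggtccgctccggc
SESN1 (chr6:109009008-109009057, minus strand): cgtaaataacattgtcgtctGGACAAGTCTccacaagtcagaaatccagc

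DDB2 had the 1 element with 0 mismatches, starting at base 6 of the transcript, and its transcript rose. The elements of AEN, FAS and MDM2 each had 2 mismatches, starting 34, 122 and 94 bases before a start. Of the genes printed, AEN, DDB2 and FDXR rose, FAS and SESN1 fell and MDM2 was not called. A match describes letters in a window of one reference sequence, and neither binding nor an effect on these transcripts was measured. The death genes with an exact half-site were BAK1, CASP8 and CASP9.

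Members were also set beside the genes around them. For each member the median log2 fold change of the 20 tested genes on each side was taken, with gene order from the GENCODE annotation. XIAP, on the X chromosome, had neighbours at a median of 0.53 and was itself at 0.52, and BIRC6, on chromosome 2, had neighbours at 0.53 and was at 0.64. AEN had neighbours at 0.78, FDXR at 0.64, TP53I3 at 0.43 and PHLDA3 at -0.46, each in the direction of the gene. GDF15, FAS, BMF and BCL2L11 lay among neighbours at 0.18, -0.09, -0.09 and -0.19.

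When the neighbours' median was taken off in the fit, 16 of the 25 changed members kept their call and direction, 6 of 14 in the death machinery and 10 of 11 among the p53 targets. As shares of all members, 20.7% of the 29 death genes and 55.6% of the 18 p53 targets were called in that fit, beside 33.5% of all genes. Only 14286 of the 17420 genes behind that last share had a known position. The other genes had no neighbours' median taken off, whereas every member did, so these shares are not fully alike. XIAP was then at -0.02 (adjusted p = 0.915) and BIRC6 at 0.11 (adjusted p = 0.325). The calls of MCL1 (-0.23, adjusted p = 0.0848), BIRC2 (-0.35, 0.0802), CASP1 (-0.38, 0.0673), CASP6 (-0.16, 0.260), BAK1 (-0.06, 0.598), BBC3 (0.59, 0.0526) and FDXR (0.37, 0.0669) were also lost. BMF was at 0.86 (adjusted p = 0.00326), BCL2L11 at 0.76 (0.00238) and CASP4 at -0.46 (0.00234). AEN was smaller at 0.38 but called (adjusted p = 0.00496), as were TP53I3 at 0.84 (8.8e-04) and FAS at -1.39 (0.00358). What neighbouring genes share was not tested.

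**Figure D4:**
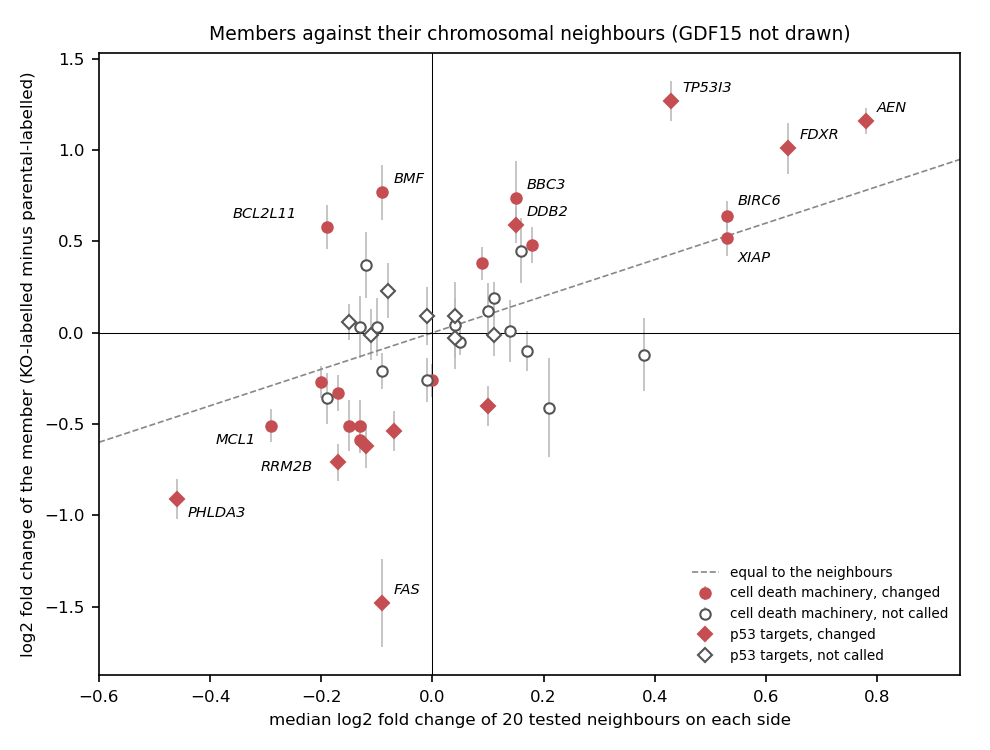
Log2 fold change of each member (KO-labelled minus parental-labelled, bars 1 SE) against the median log2 fold change of its 20 tested neighbours on each side, with circles for death genes, diamonds for p53 targets, filled where changed, and a dashed line where a gene equals its neighbours. XIAP at 0.52 and BIRC6 at 0.64 lie near the line, BMF at 0.77 and FAS at -1.48 far from it, and GDF15 at 4.90 is not drawn.

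Other genes of the same pathways were counted from lists written by function, with earlier results of these data known. Of 33 further death genes tested 9 rose, 7 fell and 17 were not called (48.5% changed, beside 40.8% of all genes), with a median log2 fold change of -0.05. CYLD, a deubiquitinase of death receptor signalling, had a log2 fold change of -1.11 (SE 0.09, adjusted p = 6.8e-05), and PYCARD, the inflammasome adaptor ASC that recruits caspase-1, rose from 0.414 ± 0.125 to 8.01 ± 3 CPM.

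Of 38 further p53 targets tested 5 rose, 11 fell and 22 were not called (42.1% changed), with a median of -0.02. The kinase PLK2 fell from 483 ± 8.11 to 237 ± 17.5 CPM and the autophagy gene DRAM1 from 23.4 ± 1.46 to 9.39 ± 1.18 CPM, while the antiproliferative gene BTG2 rose from 2.74 ± 0.117 to 8.82 ± 1.5 CPM. CDKN1A, which encodes the cell cycle inhibitor p21 and was named after its value was seen, rose from 34.4 ± 1.5 to 54.1 ± 14.2 CPM (adjusted p = 0.0154). Among 14 genes that regulate p53, 5 rose and 9 were not called (35.7% changed, beside 40.8% of all genes), with a median of 0.10. The share higher was 35.7%, beside 21.0% of all genes. PML, whose nuclear bodies hold p53, was at 0.79 (SE 0.10) in log2, among neighbours at a median of 0.95. TP53BP1, a repair protein that binds p53, was at 0.36 (SE 0.06), among neighbours at 0.03.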

How the data were processed

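Polyadenylated RNA was sequenced from MDA-MB-468 cells in 3 parental-labelled and 3 KO-labelled libraries. The deposited count table holds whole-number read counts for 31122 genes and the deposited FPKM table values for 34977 genes, both made by the authors. Per the submitters' processing notes the build was hg19 and the tools included Cufflinks 2.0.2, STAR 2.4.0f1 and SAMtools 0.1.19. Which tool did what, the annotation, the counting and the use of strand were not given in the sources used here. Counts of overlapping or near-identical genes may therefore be shared. Totals of 25637794 to 31692454 make 1 count 0.0316 to 0.0390 CPM before TMM scaling.

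Counts were fitted in edgeR 4.0.16 (R 4.3.3) over all genes with filterByExpr (minimum count 10, total 15), TMM and the quasi-likelihood test, adjusted by Benjamini-Hochberg at 0.05. The SE is the log2 fold change over the root of F. Of 2 specifications run, the legacy method of edgeR came first and called 7043 genes, and the newer method, which calls 7105, was kept after both counts were seen because it matches how these data were processed before. The same 25 members were called by both. Alternatives used limma 3.58.1 on log2(FPKM + 1) and DESeq2 1.42.0. Gene order came from GENCODE (GRCh38) by symbol, for neighbourhood only. Fits were tested on simulated data.

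The members and lists were chosen with earlier results of these data known. All members were to be named, with full values for those called at a log2 change of at least 0.8 and for BCL2, BCL2L1, MCL1, BAX, BBC3, PMAIP1, CASP8, CASP9, XIAP, MDM2, FAS, GDF15 and GADD45A, and up to 3 called genes of each other list by smallest p. Some genes that this rule names are not reported here. No death gene reached 0.8, so full values for further members, the ratio of BAX to MCL1, the check of implied length and the promoter search were added after values were seen, and support nothing.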

Additional observations from a re-analysis of the deposited data

How the results depend on the processing

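No paired analysis was possible because the parental-labelled libraries are wells of 1 plate and the KO-labelled numbers follow the order of deposition. Of 7 higher and 7 lower death genes, 4 and 3 were called by limma on log2(FPKM + 1) without a filter, 0 and 0 against a 1.5-fold change, and 4 and 2 relative to neighbours. The lower count was 4 with library totals, 4 with limma on log2(FPKM + 1) and 4 on log2(FPKM + 0.1). Leaving out 1 library gave 5 to 8 higher and 2 to 10 lower death genes. Of 5 higher and 6 lower p53 targets, the lower count was 2 without an FPKM filter and 2 against 1.5-fold, and leaving out 1 library gave 5 to 6 higher and 5 to 6 lower. The other lists, 19 higher and 18 lower, gave 12 and 8 without an FPKM filter, 4 and 4 against 1.5-fold, and 12 higher relative to neighbours, with 11 to 25 higher and 12 to 28 lower when 1 library was left out. The log2 ratio of BAX to BCL2L1 differed by 0.43 in CPM, and that of BAX to BCL2, 0.36 in CPM, ranged from -0.09 to 0.31 without 1 library. Except for the fit relative to neighbours and the fit without KO-labelled 3, no share of all genes called was counted for these settings. Their counts therefore cannot be read as particular to the members or lists. The legacy quasi-likelihood method, an alternative added after seeing the data, kept every member's call.

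Signs turned for XIAP (-0.02 relative to neighbours) and otherwise only for members not called. On the FPKM scale BCL2L1 was at 0.01, HRK at -0.11 and -0.32, PPM1D at 0.03, ZMAT3 at 0.12 and 0.18, and XPC at 0.14 and 0.16. With library totals PPM1D was at 0.04, ZMAT3 at 0.03 and XPC at 0.02, and with a filter of 10 CPM PPM1D and ZMAT3 were at 0.01. DIABLO was at -0.01 without a filter and by limma voom and at -0.13 relative to neighbours, where ZMAT3 was at 0.10. Without 1 library the ranges were -0.10 to 0.20 for BCL2, -0.41 to 0.02 for BOK, -0.19 to 0.14 for BID, -0.20 to 0.20 for HRK, -0.14 to 0.12 for DIABLO, -0.01 to 0.15 for MDM4, -0.08 to 0.11 for PPM1D, -0.14 to 0.13 for ZMAT3, -0.09 to 0.26 for GADD45A and -0.14 to 0.04 for XPC. The causes were not tested. Low counts limit GDF15, FAS, HRK and BBC3.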
